A study of Mus musculus with 4 samples.

Results

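Of the 23936 CpG islands called on the mm10 sequence, 11019 reached into the stretch of 1 kb on either side of a protein-coding gene start, and 8458 of these had at least 5 CpG sites listed in all 4 RRBS libraries. An island had to be over 200 bp long, to reach 50% GC and to hold more than 0.6 of the CpGs its base composition predicts (the CpG ratio), and gene starts were those of GENCODE release M21. The 8458 promoter islands stood among 13936 islands of any position with at least 5 shared sites, the rest being 3470 inside gene bodies and 2008 between genes. They held 460290 shared sites and served 9270 of 21938 protein-coding genes. The median promoter island was 658 bp long, with 68 CpGs, of which 44 sites were shared.

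The libraries came from R1, a wild-type mouse embryonic stem cell (ESC) line, from Tet/Tet, a line derived from R1 by placing tet-off constructs behind the Dnmt1 promoter so that the maintenance methyltransferase DNMT1 is overexpressed, and from neurons differentiated from each. Tet/Tet ESCs were cultured with puromycin and neomycin, named for that line only, while the study's methods give puromycin and G418. There was 1 Tet/Tet line. Neurons were made through 2 days as embryoid bodies and 10 to 15 days in NDiff227 medium by the labels, while the study's methods give a shorter upper limit. Each of the 4 conditions had 1 library, so there was no spread between replicates and no test between conditions was made, and every difference below is one between 2 libraries. ESCs and neurons were sequenced as different projects, so that project and cell type cannot be told apart here, while each Tet/Tet library shared a project with its R1 counterpart. The identity of the cells cannot be checked from methylation tables. Levels are percentages of reads with an unconverted cytosine, read totals were not given, and an island's level is the unweighted mean of its shared sites. Where 4 levels stand in a row, they are those of the R1 ESC, Tet/Tet ESC, R1 neuron and Tet/Tet neuron libraries, in that order. The SDs below are over sites or islands and not between cultures.

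CpG islands are stretches where CpGs have escaped the loss that methylated cytosines undergo by deamination over evolution. Many lie at gene starts, where they are kept free of methylation whether or not the gene is transcribed. Known exceptions are the islands of imprinted genes, of genes used only in germ cells and, in female cells, of the inactive X chromosome, at which methylation goes with lasting silence.

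The sequences of 6 stretches show what the measurements rested on. All are from mm10, 5′ to 3′ on the strand of the gene, outside annotated exons, and the capitals mark the CpGs listed in all 4 libraries. The first 3 are from an imprinted gene (Jade1, chr3:41555538-41555687, plus strand, upstream of the start), a meiotic gene (Hormad1, chr3:95559525-95559674, plus strand, just upstream) and a cytoskeletal housekeeping gene (Actg1, chr11:120350094-120350243, minus strand, upstream). The others were chosen after their values were seen, 2 for a large difference between the neuron libraries (Majin, chr19:6184583-6184665, plus strand, in an intron; Fam178b, chr1:36683184-36683333, minus strand, just upstream) and 1 for a difference in the opposite direction (Vps37b, chr5:124032271-124032360, minus strand, just upstream).
Jade1: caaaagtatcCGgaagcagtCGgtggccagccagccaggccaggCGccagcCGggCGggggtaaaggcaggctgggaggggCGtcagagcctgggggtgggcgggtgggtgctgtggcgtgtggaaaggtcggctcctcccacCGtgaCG
Hormad1: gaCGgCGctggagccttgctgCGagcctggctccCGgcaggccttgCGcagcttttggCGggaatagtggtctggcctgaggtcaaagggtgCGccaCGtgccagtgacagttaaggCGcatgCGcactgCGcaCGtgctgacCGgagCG
Actg1: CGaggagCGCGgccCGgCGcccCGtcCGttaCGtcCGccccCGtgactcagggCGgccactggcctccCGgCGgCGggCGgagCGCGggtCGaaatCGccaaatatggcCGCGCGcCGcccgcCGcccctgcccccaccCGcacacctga
Majin: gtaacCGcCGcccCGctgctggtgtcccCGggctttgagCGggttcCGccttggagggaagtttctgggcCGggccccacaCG
Fam178b: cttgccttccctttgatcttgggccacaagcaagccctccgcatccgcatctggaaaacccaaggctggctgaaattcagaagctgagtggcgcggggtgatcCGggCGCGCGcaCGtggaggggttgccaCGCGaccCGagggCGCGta
Vps37b: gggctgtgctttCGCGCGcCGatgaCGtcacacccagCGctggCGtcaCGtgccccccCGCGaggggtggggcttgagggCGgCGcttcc
The 8 capital CpGs of Jade1 averaged 2.18%, 2.22%, 91.0% and 16.1%. The 14 of Hormad1 averaged 6.61%, 18.1%, 90.3% and 20.7%. The 25 of Actg1 averaged between 0.924% and 1.46% in the 4 libraries. The means at Jade1 and Hormad1 were thus high in R1 neurons alone among these libraries, and that of Actg1 was low in each. These 3 were not picked blind to value either. Jade1 and Hormad1 came from members of gene lists at 25% or more in at least 1 library. Actg1 came from housekeeping islands under 10% in all 4. Their contrast in level therefore follows in part from the choice. The stretch of Majin stood at 89.2% in R1 neurons against 22.5% in Tet/Tet neurons, that of Fam178b at 95% against 15.6%, and that of Vps37b at 0% in the first 3 libraries and 40.8% ± 23.5 (SD, n = 12 sites) in Tet/Tet neurons.

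Promoter islands were nearly free of methylation in every library. The mean over the 8458 islands was 2.56% ± 2.73 (SD over islands) for R1 and 2.71% ± 3.03 for Tet/Tet among the ESC libraries, and 6.60% ± 12.5 for R1 and 2.83% ± 2.44 for Tet/Tet among the neuron libraries. The 4 medians were 1.89%, 2.05%, 2.77% and 2.20%. The R1 neuron library was the high one in its mean and its spread, and its median stood much nearer to the others. In all 4 libraries 7324 islands (86.6%) were under 10%, and 6052 were under 5%. Islands under 5% made up 92.6%, 93.1%, 75.7% and 91.2% of them. For comparison, the mean in R1 neurons was 39.3% over islands inside gene bodies and 67.4% over those between genes. Sites on the mitochondrial genome, where little methylation is known, had means of 3.19%, 7.37%, 15.9% and 6.27% over 69 to 111 sites, with medians of 0% to 0.705%. Their mean was thus also highest in R1 neurons, and its part in the promoter result was not tested.

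**Figure D1:**
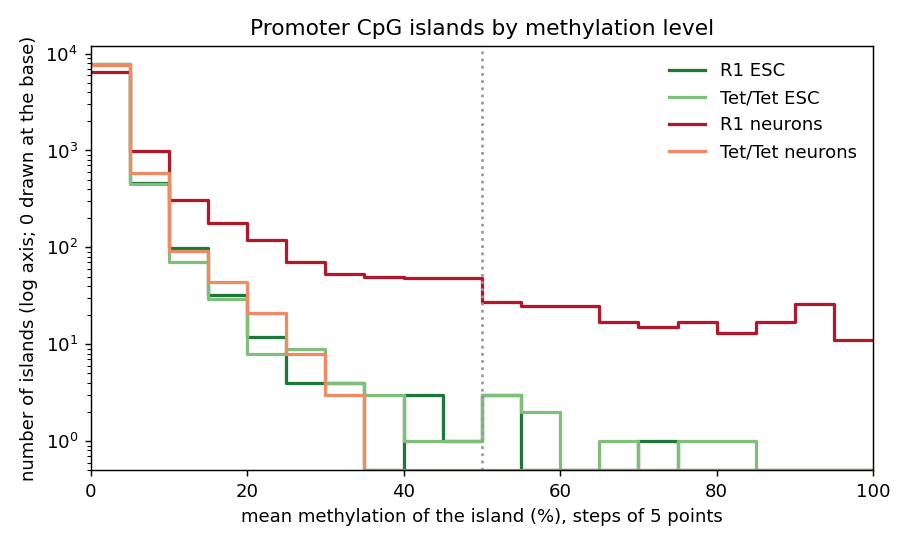
Number of promoter islands (log axis) in each step of 5 points of mean methylation (%), for the 4 libraries; the dotted line marks 50%. All 4 lines start near the same height under 5%, and the line of R1 neurons alone runs on to 100%, while that of Tet/Tet neurons ends at 34.1%.

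An island was called methylated at a mean of at least 50%. By that measure 4 promoter islands were methylated in the R1 ESC library, 8 in its Tet/Tet counterpart, 193 (2.28%) in R1 neurons and 0 in the neurons of Tet/Tet, where the highest island stood at 34.1%. Over all 13936 islands the shares called were 4.56%, 5.28%, 21.7% and 0.861%, so that the share of promoter islands was the smaller in each library. No island was called in all 4 libraries. The R1 neuron library alone called 184 of the 193, and the other 9 were also at 50% or more in an ESC library. At 25% or more there were 16, 26, 462 and 11 promoter islands, and the shares of all islands at that level were 10.3%, 10.3%, 26.6% and 6.87%. Of the 63 islands with exactly 5 shared sites, 8 were at 50% or more in R1 neurons, and of the 43 promoter islands with exactly 4, which were left out, 4 were.

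The 9 islands at 50% or more in an ESC library were those of 4933415F23Rik, Gm10188, Pdha2, Lrrc43, Gm45844, Cdc34b, H1fnt, Krt83 and Dgkk. Those of Lrrc43, Dgkk, H1fnt and Krt83 rested on 5, 6, 8 and 9 shared sites. The highest of the 9 islands in the ESC libraries was at Krt83, a hair keratin gene, with 72.8%, 80.2%, 96.1% and 20.4%. Pdha2, a testis form of a pyruvate dehydrogenase subunit, had 24.8%, 54.6%, 93.3% and 21.3%. H1fnt, a linker histone of spermatids, had 43.7%, 51.0%, 88.2% and 14.1%. At all 3 the R1 neuron library was highest and the Tet/Tet neuron library lowest. The 7 islands at 25% or more in all 4 libraries were those of Actl7b, Taf9b, Gm9008, Gm10188, Cdc34b, Gm45844 and Dgkk, and the lowest of their 4 levels was in Tet/Tet neurons at each of Actl7b, Gm9008, Gm10188, Cdc34b, Gm45844 and Dgkk.

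The 193 islands methylated in R1 neurons were chosen by that library, so their levels in it are a description. Their medians were 7.47%, 7.18%, 70.5% and 10.9%, against 1.86%, 2.04%, 2.72% and 2.17% in the 8265 other promoter islands. No promoter island passed 34.1% in Tet/Tet neurons, so by this choice all 193 were bound to be lower there than in R1 neurons. Tet/Tet neurons were also lower at 3944 of their 4021 shared sites, which the choice favours too. In 68 of the 193 islands every shared site was at 50% or more in R1 neurons. The Tet/Tet neuron level was above that of R1 ESCs in 142 and above that of Tet/Tet ESCs in 126. The 37 islands at 90% or more in R1 neurons ran from 10.1% to 34.1% in Tet/Tet neurons, with a median of 20%. On the X chromosome were 8 of the 37, and 289 of all 8458 promoter islands.

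The called islands also differed in their sequence features, which the call did not use. They were shorter (median 366 against 665 bp), held fewer CpGs (32 against 69) and had a lower CpG ratio (0.823 against 0.886) and a lower GC content (65.5% against 68.8%). A gene start lay inside 49.2% of them and inside 81.5% of the others, and starts on both strands lay inside 2.07% against 7.16%. The share called fell from 8.65% at CpG ratios of 0.6 to 0.7 to 1.07% from a ratio of 1 up, and from 9.55% at 200 to 300 bp to 0.581% from 1000 bp up. Shorter islands also had fewer shared sites (median 17 in called and 45 in other islands), so that length and the number of sites moved together. Of the 289 islands on the X chromosome 15 (5.19%) were called, and of the 8169 on autosomes 178 (2.18%).

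**Figure D2:**
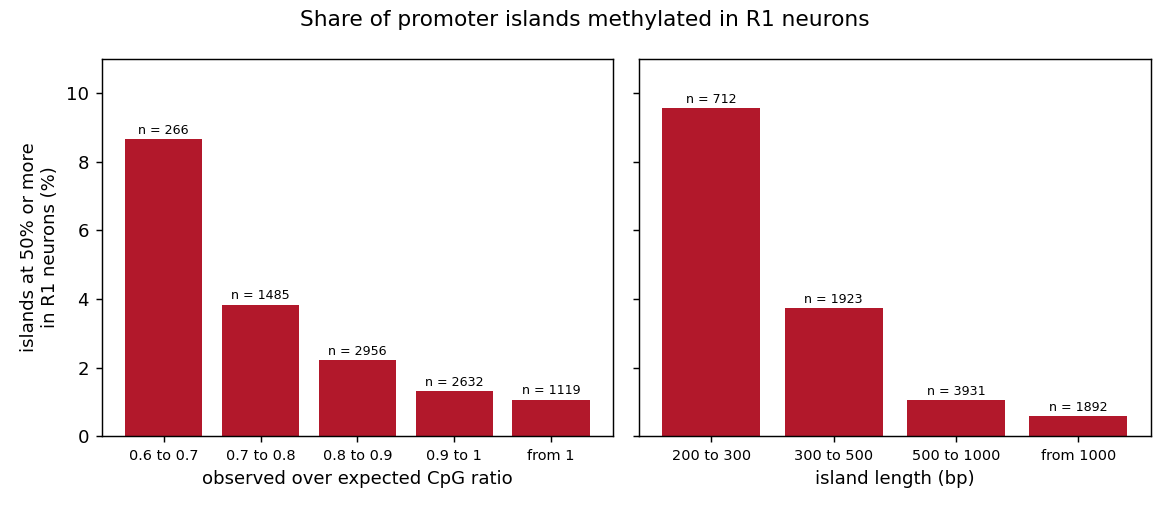
Percent of promoter islands at 50% or more in R1 neurons by observed over expected CpG ratio (left) and by length in bp (right), with the number of islands over each bar. The bars fall from left to right in both, from 8.65% to 1.07% and from 9.55% to 0.581%.

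The level in R1 ESCs ordered the islands in the same way. Of the 4580 islands under 2% in R1 ESCs, 0.284% were methylated in R1 neurons. The share was 1.69% at 2 to 5%, 10.5% at 5 to 10%, 44.1% at 10 to 25% and 81.3% of the 16 islands from 25% up. The mean in Tet/Tet neurons over the same classes was 2.00%, 3.16%, 5.83%, 10.3% and 19.99%, and in Tet/Tet ESCs 1.87%, 2.91%, 5.41%, 12.1% and 39.8%. Islands with more methylation in R1 ESCs thus had more in each of the other 3 libraries.

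Pooled over islands, sites near an island edge had the higher means. In R1 neurons, sites under 50 bp from the nearer edge averaged 8.73% and those at 400 bp or more from it 3.26%. The corresponding means for ESCs were 2.97% and 2.18% (R1) and 3.08% and 2.32% (Tet/Tet), and those for the Tet/Tet neuron library 3.22% and 2.38%. Sites that far from an edge come from long islands only, so the same was computed within the 2436 islands that had shared sites at both distances. There the R1 neuron means were 7.61% near the edge and 3.60% in the interior, with the edge higher in 1624 islands and lower in 805. The edge minus interior difference in these islands averaged 0.827, 0.850 and 0.681 points in the R1 ESC, Tet/Tet ESC and Tet/Tet neuron libraries. Around the gene start, R1 neurons stood at 4.05% over the 200 bp upstream and at 5.95% from 800 to 1000 bp downstream. Within the 2067 islands with sites at both distances, R1 neurons averaged 3.86% under 100 bp from the start and 6.36% at 600 to 1000 bp, and the near sites were lower in 1367 and higher in 695. By class of island the sites were pooled, so the near and far means come from partly different islands. In islands called methylated in R1 neurons the pooled level near the start was not lower. It was 70.0% within 100 bp of the start (108 islands) and 68.1% at 600 to 1000 bp (59 islands). In islands at 25 to 50% the pooled means were 31.7% (160 islands) and 38.4% (61 islands).

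**Figure D3:**
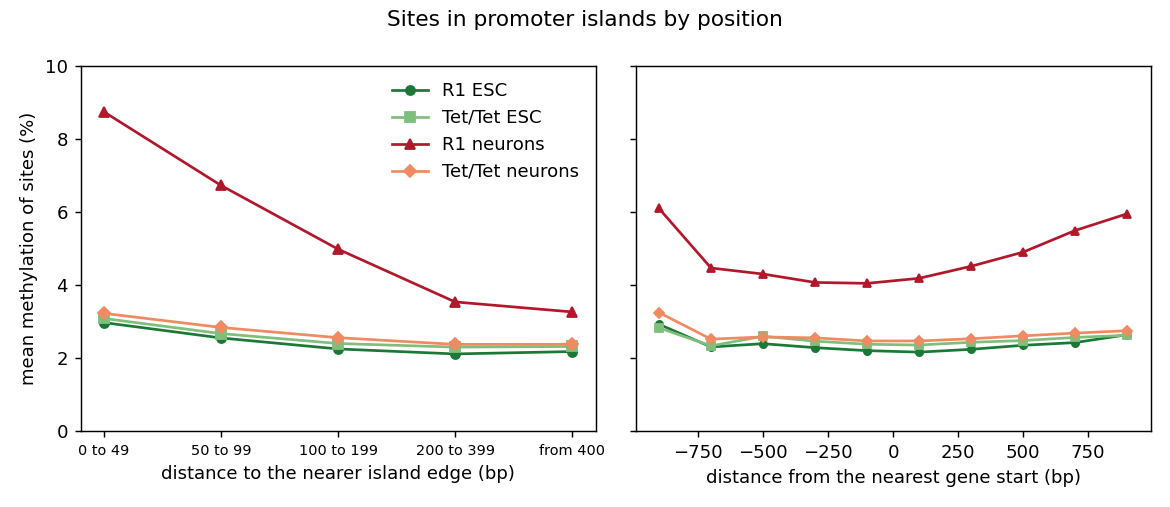
Mean methylation (%) of shared sites in promoter islands by distance in bp to the nearer island edge (left) and from the nearest gene start, downstream positive (right), for the 4 libraries. The R1 neuron line falls from 8.73% at the edge to 3.26% in the interior and is lowest near the start, and the other lines stay between 2% and 4%.

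The island of Foxj1, a forkhead regulator of motile cilia, held a low stretch by the start and a high one beyond it in 1 island of 1530 bp with 47 shared sites. The 27 sites over 800 bp downstream of the start averaged 5.05%, 3.27%, 73.5% and 9.28%. The 20 sites up to 340 bp from the start averaged 0.779%, 1.68%, 2.503% and 2.56%. The library mean of 43.3% for Foxj1 in R1 neurons thus joined a methylated and an almost unmethylated stretch, and its SD over sites was 40.03 points.

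Between Tet/Tet and R1 ESCs the islands hardly differed. The mean difference, Tet/Tet minus R1, was 0.145 points and the median 0.188, and 91.5% of islands were within 2 points. Tet/Tet ESCs were higher by at least 10 points at 26 islands and lower at 24, which is 0.307% and 0.284% against 3.32% and 1.98% of all islands. Among islands with at least 10 shared sites, the largest rises were at 4933415F23Rik, AU022751, Pdha2 and Cdc34b. 4933415F23Rik stood at 42.7% ± 17.99 in the R1 and 77.7% ± 12.2 in the Tet/Tet ESC library (SD over 15 sites), higher at 14 sites and lower at 1. AU022751, on the X chromosome, stood at 13.2% and 46.8%, with 93.5% in R1 neurons against 14.6% in Tet/Tet neurons. With that minimum of sites the largest falls were at Ccno (26.9% and 0%), Prkag3 (25% and 0%), Rars (20.3% and 2.41%) and Susd3 (19.7% and 3.11%). At Rars, which encodes an arginyl-tRNA synthetase, 5 neighbouring sites within 51 bp were each at 100% in R1 ESCs, and at Ccno, a cyclin-like gene of multiciliated cells, 7 sites within 143 bp were each at 33.3%. With shared sites restricted to MspI fragments of 40 to 220 bp the difference at Rars was 0.23 points, in the other direction.

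Between the neuron libraries the differences ran one way. Tet/Tet neurons were lower by at least 10 points at 838 islands (9.91%) and higher at 8 (0.0946%), against 31.2% and 0.0646% of all islands. The mean difference, Tet/Tet minus R1, was -3.77 points and the median -0.48. The largest falls with at least 10 sites were at Celsr2, a planar polarity cadherin (92.4% in R1 and 11.04% in Tet/Tet neurons), 1700029P11Rik (91.5% and 10.1%), Sec1, a fucosyltransferase gene (93.5% and 13.5%), and Fam178b (95% and 15.6%). In the ESC libraries these 4 islands stood between 9.13% and 25.6%, so that the R1 neuron library was the one apart from the other 3. None of the 10 sites of Fam178b was higher in Tet/Tet neurons. In R1 neurons these sites held only the values 75% and 100%, and depth is unknown, so they need not be separate observations. Runs of neighbours at 100% there covered 4 sites within 14 bp at Fam178b and 4 within 34 bp at 1700029P11Rik. The longest runs of identical values were 2 sites at Celsr2 and 3 at Sec1. Elsewhere in R1 neurons they reached 10 sites at AU022751 and 6 at Trim52 and Syce3, but 1 at Tuba3a and Hormad1.

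**Figure D4:**
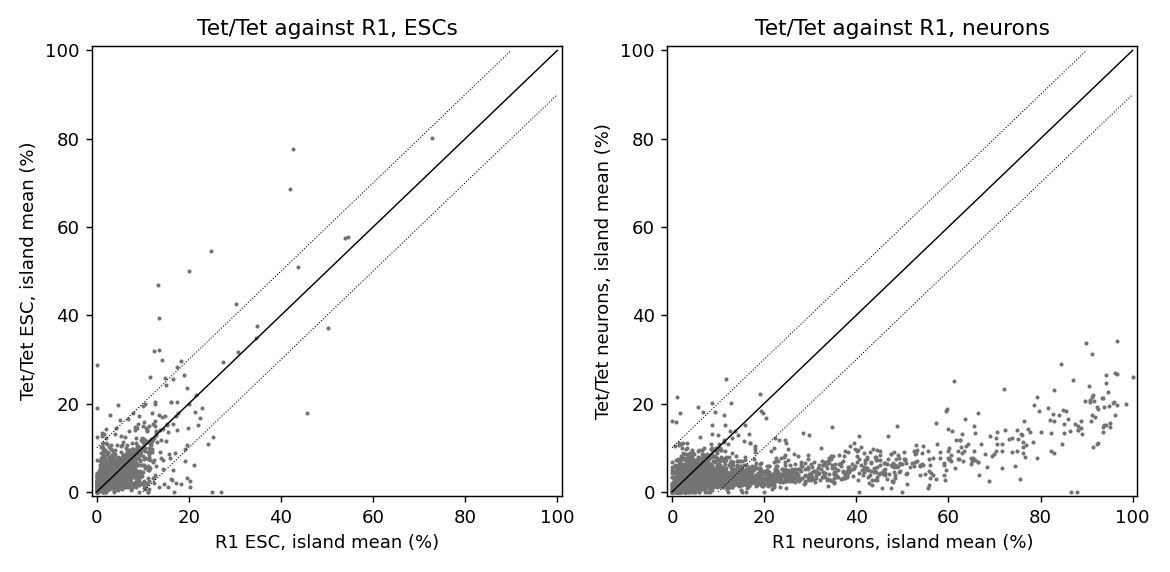
Each point is 1 of the 8458 promoter islands, with its mean methylation (%) in R1 on the horizontal and in Tet/Tet on the vertical axis, for ESCs (left) and neurons (right); the solid line marks equality and the dotted lines a difference of 10 points. In ESCs 26 points lie above and 24 below the dotted lines, and in neurons 8 and 838.

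The 8 islands higher in Tet/Tet neurons by at least 10 points were those of Knl1, Vps37b, Atrx, Ctif, Ccdc66, 2210016L21Rik, 3110082I17Rik and Fam45a. Knl1, a kinetochore scaffold, stood at 1.84%, 0.53%, 1.04% and 21.5% ± 34.0 (SD over 35 sites). Vps37b, a subunit of the ESCRT-I sorting complex, stood at 0.29%, 0.45%, 0.86% and 15.7%, and Atrx, a chromatin remodeller gene on the X chromosome, at 1.86%, 0.97%, 1.63% and 17.8%. The raised sites included runs of neighbours with identical values in Tet/Tet neurons. In the longest runs, at Atrx 9 sites within 37 bp were each at 33.3%, at Knl1 6 sites within 20 bp at 50%, and at Vps37b 5 sites within 14 bp at 50%. With sites restricted to MspI fragments the difference was -1.65 points at Atrx and -0.70 at Ccdc66.

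Neurons and ESCs of the same line came from different sequencing projects, so the next differences hold both. R1 neurons were higher than R1 ESCs by at least 10 points at 838 islands and lower at 13, against 30.6% and 0.165% of all islands, and the mean difference was 4.04 points. This comparison and that of the neuron libraries share the R1 neuron library. Among islands with at least 10 shared sites, the largest rises were at D1Pas1 (6.63% to 95.6%), Rhox6 (5.16% to 94.9%), Yy2 (3.02% to 92.3%) and Trim52 (10.97% to 98.5%). D1Pas1 is a testis-expressed helicase gene, Rhox6 a reproductive homeobox gene on X and Yy2 a retrogene copy of the zinc finger gene Yy1. Tet/Tet neurons were higher than Tet/Tet ESCs at 38 islands and lower at 35, against 3.57% and 8.06% of all islands, with a mean difference of 0.121 points. With the same minimum of sites, the largest rises there were at Pcdhga12 (1.66% to 23.2%), Knl1, Txlng (2.07% to 20.1%) and Atrx, which with sites restricted to MspI fragments differed by -1.88 points, and the largest falls at 4933415F23Rik (77.7% to 19.6%), Cdc34b (68.6% to 33.7%), Pdha2 (54.6% to 21.3%) and AU022751 (46.8% to 14.6%).

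Genes used in the germ line held most of the high levels among the gene lists. The lists were chosen with earlier results of these data known, so their shares are a description and not independent of the levels. The list of 60 germline genes had 33 promoter islands with enough sites, with medians of 7.96%, 11.1%, 84.0% and 14.9%. Of the 33, 25 were at 50% or more in R1 neurons (2.28% of all promoter islands were), 0 in the other libraries, and 29 were lower in Tet/Tet than in R1 neurons by at least 10 points (9.91% of all promoter islands were). Tuba3a, a testis tubulin, had 11.7%, 26.0%, 94.7% and 22.6%. Syce3, of the synaptonemal complex that joins paired chromosomes, had 14.8%, 25.8%, 94.2% and 15.2%, and Rpl10l, a testis ribosomal protein retrogene, 8.38%, 6.26%, 93.8% and 19.22%. Hormad1, which marks unsynapsed axes in meiosis, had 7.87%, 17.8%, 91.2% and 21.5%. These 4 were named for their level in R1 neurons. Dazl, an RNA-binding regulator of germ cells, was intermediate in R1 neurons at 52.9% with 5.58%, 10.6% and 8.74% elsewhere. The islands of Meiob (12.5% in R1 neurons), Stag3 and Ccnb1ip1 were low in all 4. Also low in all 4 was an island whose nearest gene is Mepce, which is not itself in the list. Another island, at both Mepce and the listed gene Zcwpw1, stood at 50% in R1 neurons. In Tet/Tet ESCs 7 of the 33 were higher than in R1 ESCs by at least 10 points and 0 lower, where 0.307% and 0.284% of all promoter islands were, among them Fkbp6 (12.5% and 31.8%) and Slc25a31 (13.5% and 32.0%).

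**Figure D5:**
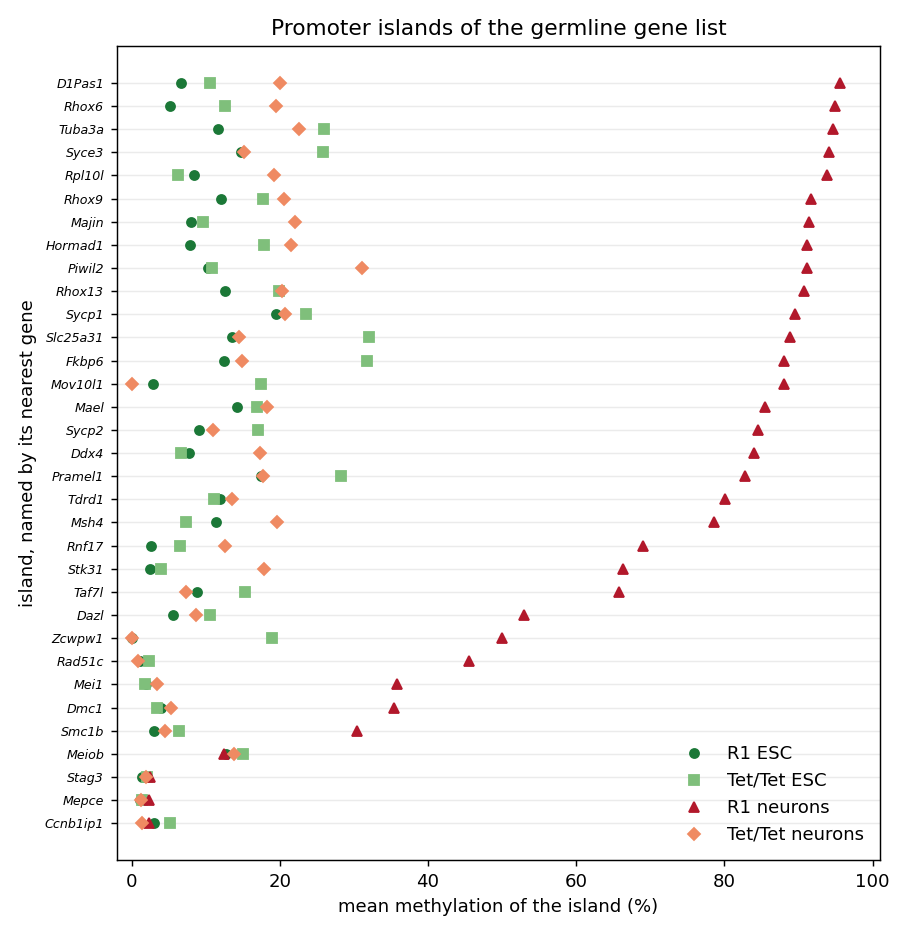
Mean methylation (%) of the 33 promoter islands of the germline list, named by the nearest gene and ordered by R1 neurons, with 1 symbol for each library. The triangles of R1 neurons reach 95.6%, and the other symbols stay at or under 32.0%.

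In a window of 300 bp around the island centre, the E-box CACGTG was found on either strand in 11 of the 33 germline islands (33.3%), in 14.5% of the 193 islands methylated in R1 neurons and in 7.51% of all promoter islands. The motif TTCCCGC, read by E2F factors, was found in 7 of the 33 (21.2%), in 11.4% and in 11.2%, and the hexamer TGCCGC of the imprinting factor ZFP57 in 5 of the 33 (15.2%), in 28.5% and in 33.6%. A palindromic match of CACGTG counts once. In the other gene lists the share with CACGTG ran from 0% (pluripotency) to 27.3% (clustered protocadherins), with 21.1% of housekeeping islands. That with TGCCGC ran from 9.09% (clustered protocadherins) to 65% (imprinted). Both CACGTG and TTCCCGC occur in the stretch of Hormad1 above, the second on the opposite strand. CACGTG also occurs in the stretches of Fam178b and Vps37b, and the latter was at 0% in R1 neurons.

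Of 45 imprinted genes, 20 promoter islands had enough sites, and 3 (15%, against 2.28% of all promoter islands) were at 50% or more in R1 neurons, at Jade1, Fkbp6 and Nap1l5. Jade1, which is imprinted in extra-embryonic lineages, had 2.18%, 2.22%, 91.0% and 16.1%. Nap1l5, a paternally expressed brain gene, had 10.2%, 2.41%, 50.9% ± 7.02 (SD over 13 sites) and 1.77%, and Peg3, a paternally expressed zinc finger gene, 16.1%, 2.90%, 44.5% and 3.34%. At Gnas the 4 levels were 3.19%, 1.26%, 40.1% and 8.15%, and at Nnat 12.6%, 20.4%, 39.4% and 11.1%. The levels of Nap1l5, Peg3, Gnas and Nnat in R1 neurons lay between 39% and 51%, while the other libraries were at or under 20.4%. Zrsr1 was the exception among these genes in having its highest level, 19.6%, in Tet/Tet ESCs, with 16.8% in R1 neurons. The remaining imprinted islands, other than Fkbp6, were under 15% in all 4 libraries.

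The clustered protocadherins, cell surface proteins of neurons with a promoter for each variable exon, had 11 islands. In R1 neurons their median was 27.9% and 3 (27.3%, against 2.28% of all promoter islands) were at 50% or more, at Pcdha2 (86.7%), Pcdhga12 (83.0%) and Pcdhga3 (63.0%). In Tet/Tet neurons these 3 stood at 0%, 23.2% and 13.1%, and in both ESC libraries all 3 were under 9%. Pcdhac1, Pcdhac2 and Pcdhgc3 were not among the 6 islands of this list at 25% or more. Islands of Pcdha2 and Pcdhga3 rested on 5 and 9 sites.

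Regulators of development made up 2 of the lists. None of the 30 Hox islands was at 50% or more in any library, and the highest was Hoxd12 with 48.4% in R1 neurons against 3.24% in Tet/Tet neurons. Among 124 islands of other homeobox and developmental families 3 (2.42%) were called in R1 neurons, at Foxs1, Pitx3 and Pitx1, against 2.28% of all promoter islands. Foxs1, a forkhead gene, had 34.6%, 34.9%, 91.1% and 17.4%, and Pitx3, a regulator of midbrain dopamine neurons, 0%, 28.8%, 74.4% and 5.95%. Pitx1 had 25.3%, 12.4%, 59.2% and 2.69% over 7 sites. All 3 therefore had their highest level in R1 neurons. Between the ESC libraries Pitx3 was higher in Tet/Tet and Pitx1 lower, each by 10 points or more, while Foxs1 hardly differed. Pax5, a B-cell regulator, had 47.7% in R1 neurons against 2.41% in Tet/Tet neurons.

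A further pair of lists held genes of the cell states that the cultures were taken through. None of the 8 pluripotency islands was at 50% or more in R1 neurons, where 2.28% of all promoter islands were, and the highest was Prdm14, a regulator of naive pluripotency and of germ cells, with 24.5% in R1 neurons and 3.71% or less elsewhere. Sox2, Klf4, Klf5, Tbx3 and Sall4 were under 5% in all 4 libraries. Of the 19 neuronal islands 1 (5.26%, against the same 2.28%) was called, an island of 11 sites near Slc32a1, the vesicular GABA transporter gene, with 16.6%, 15.3%, 62.5% and 11.7%, while the second Slc32a1 island was at 5.70% in R1 neurons. Map2, Mapt, Nefl, Elavl4 and Nes were under 5% in all 4.

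Housekeeping genes, which are used in most cells, and genes of the methylation machinery were also examined. Of 19 housekeeping islands 18 were under 25% in every library, and Gusb, a lysosomal glucuronidase gene, had 30.9% in R1 neurons over 8 sites with 2.96% to 4.75% in the others. Of all promoter islands 5.46% were at 25% or more in R1 neurons, and 1 of 19 is near that share. The 13 islands of the DNA methylation machinery had a median of 2.18% in the R1 and 2.36% in the Tet/Tet neuron library, with a highest level of 18.3%. The island of Dnmt1, where the constructs lie, is on chromosome 9 and was not analysed here, since Tet/Tet neurons list no site there. The 26 histone islands reached at most 18.04%. Of 170 Zfp zinc finger islands 1 (0.588%, against 2.28% of all promoter islands) was called in R1 neurons, at Zfp180, with 13.5%, 39.5%, 54.6% and 10.5%.

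The call at 50% cut through a continuous range. Just inside it in R1 neurons stood Zcwpw1 (50.0%) and Slc13a3 (50.4%), and just outside Spag16 (49.6%) and Fbln2 (49.9%). Slc13a3, Spag16 and Fbln2 were between 3.84% and 9.98% in the other 3 libraries. Zcwpw1, a histone reader of meiosis, had 6 neighbouring sites at 100% in R1 neurons and 6 at 0%, so that its mean described neither.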

How the data were processed

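RRBS libraries of ESCs and neurons of the R1 and Tet/Tet lines, 1 each, were used. Per the submitters' processing notes, reads were trimmed with Trim Galore 0.6.4, checked with FastQC 0.11.8, mapped to mm10 with Bismark 0.19.0 and called with MethylDackel 0.3.0. The authors deposited, for each CpG, the percent of its reads with a cytosine, without read totals, so depth per site is unknown and no interval or read minimum was applied. The tables listed 2310510, 2934962, 5295489 and 3976676 sites on chromosomes 1 to 19, X and Y. The Tet/Tet neuron table lists none on chromosome 7 beyond 55762981, on chromosomes 8 and 9, and on chromosome 10 before 128096803, so islands there were left out of the comparisons over 4 libraries.

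Islands were found in Python 3.11.15 (numpy 2.4.6, pandas 2.3.3, numba 0.67.0; figures, matplotlib 3.10.9) by a running score of +17 for a CpG and -1 for any other base, then held to the 3 criteria. An island with several genes was named by the nearest start. Calculations were tested on simulated sequence and sites. The members, gene lists and thresholds were chosen with earlier results of these data known. Named were islands at 50% or more in all 4 libraries (0 were found), the 4 largest rises and falls per comparison with at least 10 shared sites, up to 8 list members at 25% or more, and 2 islands on each side of 50% in R1 neurons. Islands at 50% or more in an ESC library, those higher in Tet/Tet neurons, those at 25% or more in all 4 libraries and further list members were named after their values were seen. The comparison of sites within single islands by distance was chosen after seeing the data. Alternatives covered the island scan and criteria, the sites, the summary of an island, the starts and window, the chromosomes and the thresholds.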

Additional observations from a re-analysis of the deposited data

Results flagged for a closer look

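The Tet/Tet minus R1 difference of promoter islands was not the same in ESCs and neurons. Its mean was 0.145 points in ESCs and -3.77 in neurons, -3.91 points apart. Of the 8458 promoter islands, 18 were higher by at least 10 points in Tet/Tet ESCs and lower by at least 10 in Tet/Tet neurons. At 1 island the reverse held. Taken singly, 26 islands were higher and 24 lower in ESCs, and 8 were higher and 838 lower in neurons. At most 8 could thus show the reverse. The joint count over islands of any position was not made, so whether it is particular to promoter islands was not tested. With 1 library per condition none of these differences between cell types was tested.

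Among the islands named, only those whose ESC and neuron differences had opposite signs and were each at least 10 points are given here. The neuron difference minus the ESC difference was -112.1 points at 4933415F23Rik, -112.5 at AU022751, -101.8 at Pdha2, -101.7 at Lrrc43, -97.2 at Pitx3, -92.5 at Fkbp6, -90.01 at Syce3, -86.5 at Tuba3a, -82.6 at Cdc34b, -70.1 at Zfp180 and -69.0 at Zcwpw1. The change of sign was thus the rule by which they were picked. All of these were higher in the Tet/Tet than the R1 library of ESCs and lower in that of neurons. Lrrc43 and Pitx3 rested on 5 and 8 sites, with SDs over sites of 50 and 34.4 points in Tet/Tet ESCs. The 1 island with the opposite pattern was at Fam45a, with a value of 39.3 points over 7 sites.

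In the parts of the genome where the table of Tet/Tet neurons lists no site, 2115 promoter islands had at least 5 sites in the other 3 libraries. There 43 islands (2.03%) were at 50% or more in R1 neurons and 0 in either ESC library, and the medians were 1.89% and 2.06% in ESCs of R1 and Tet/Tet and 2.84% in R1 neurons.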

How the results depend on the processing

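Under each alternative run, the mean of R1 neurons was the highest of the 4, and more islands were lower than higher in Tet/Tet than in R1 neurons. Of 205 alternative counts and means 133 stayed within 1.5 times the reported value. No paired analysis was possible because each condition had 1 library. Depth is unknown, so the counting error of single sites cannot be given. Leaving out islands mostly soft-masked removed 0 islands.

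Islands at 50% or more (reported 4, 8, 193 and 0) numbered 36, 57, 574 and 1 of 9943 islands from sliding 200 bp windows, 1, 2 and 52 in the first 3 libraries of 5791 islands by stricter criteria, and 11, 18, 361 and 1 of 9789 with the starts of all transcripts (1 in all 4). They numbered 16, 26, 462 and 11 with a threshold of 25% (7 in all 4) and 0, 2 and 84 with 75%. With at least 10 shared sites the ESC counts were 2 and 5, with 3 shared sites Tet/Tet neurons had 1, and in MspI fragments of 40 to 220 bp R1 ESCs had 2 and Tet/Tet neurons 1. The mean in R1 neurons was 10.4% with sliding windows. With the median over sites the means were 0.956% and 1.00% in ESCs and 1.16% in Tet/Tet neurons.

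Of islands differing by 10 points, higher and lower in Tet/Tet than R1 ESCs (26 and 24), there were 93 and 55 with sliding windows, 10 and 5 with stricter criteria, 54 and 55 with each library's own sites, 17 and 4 in MspI fragments and 7 and 3 at a difference of 20 points; 45 were higher with all transcripts, and 9 lower with 10 shared sites and 7 with the median. Lower in Tet/Tet than R1 neurons (838) were 1613 with sliding windows, 320 with stricter criteria and 483 at 20 points. Higher (8) were 2, 18, 3, 3 and 1 with stricter criteria, own sites, MspI fragments, the median and 20 points. Higher in R1 neurons than ESCs (838) were 1618, 323 and 494 with sliding windows, stricter criteria and 20 points. Lower (13) were 2 with stricter criteria, with the median and at 20 points, 6 with 10 shared sites, 32 with own sites and 3 in MspI fragments. Higher and lower in Tet/Tet neurons than ESCs (38 and 35) were 62 and 170 with sliding windows, 10 and 11 with stricter criteria, 61 and 65 with own sites, 21 and 23 in MspI fragments, 75 and 68 with all transcripts and 3 and 13 at 20 points; 20 were lower with 10 shared sites.

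Among named islands 13 differences changed direction. In MspI fragments these were 0.23 points at Rars and 0.32 at Zfp867 (Tet/Tet minus R1 ESCs), 1.57 and 0.088 at the same islands (R1 neurons minus ESCs), -0.70 at Ccdc66 and -1.65 at Atrx (Tet/Tet minus R1 neurons), and -0.12 and -1.88 at the same islands (Tet/Tet neurons minus ESCs). With the median they were 0.97 at Rars and 0.17 at Zfp867 (R1 neurons minus ESCs), -0.25 at Ccdc66 (neurons) and 1.90 at Dgkk (ESCs), and with own sites -1.14 at Majin (Tet/Tet neurons minus ESCs). The cause was not tested.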

Other observations

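Most of the 193 islands methylated in R1 neurons, 158, belonged to none of the gene lists. The genes named here were chosen after their values were seen. Several more are known from testis and meiosis. Actl7b, an actin-related gene of spermatids, stood at 34.8% and 37.5% in the ESCs of R1 and Tet/Tet and at 96.6% and 26.8% in their neurons. Papolb, a testis poly(A) polymerase, had 3.33%, 5.66%, 84.9% and 18.6% in the same order, Dmrtb1, a regulator of the entry into meiosis, 5.27%, 3.79%, 88.2% and 14.04%, and Hsf5, a heat shock factor gene of spermatocytes, 9.59%, 5.98%, 79.2% and 21.6% over 78 sites.

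Genes of other differentiated tissues were also found there. Des, the muscle intermediate filament desmin, had 3.66%, 2.00%, 62.0% and 7.33% over 57 sites, and its neighbour Speg, a striated muscle kinase, 12.04%, 9.64%, 62.0% and 9.25% over 45. Lep, the adipocyte hormone leptin, had 14.5%, 14.2%, 86.0% and 16.5%, and Lhcgr, the gonadal receptor of luteinizing hormone, 14.2%, 29.8%, 87.1% and 25.4%. The ovary gene Zar1 stood at 50.7% in R1 neurons and at 7.47% or less in the others.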
